A study of Mus musculus with 4 samples.

Results

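Receptors for the homing of B cells and for their retention in or egress from bone marrow were examined. The cells were mouse B-cell acute lymphoblastic leukaemia (B-ALL) cells without Anp32b. The group comprises 9 genes out of 16613 gene symbols in the files: Cxcr4, Cxcr5, Ccr7, Ccr6, Ccr9, S1pr1, Selplg, Cd44 and Gpr183. They were picked by symbol, and each was found in every library. RNA-seq was made from GFP+ bone marrow cells of recipients of B220+ marrow cells that carried introduced N-myc. The cells that were given were Anp32b-/- (knockout, 2 libraries) or Anp32b+/+ (wild type, 2 libraries), on the C57BL/6 strain. Both groups therefore share the N-myc driver and differ by label in Anp32b, which encodes a nuclear acidic protein. The labels state neither the age of the animals nor the time after transfer, nor how the knockout was made, nor whether the libraries came from separate animals. The p-values thus measure only the spread between these libraries, which may be technical.

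Developing B cells are kept in the marrow chiefly by CXCR4, the receptor for the chemokine CXCL12 made by stromal cells. Egress into blood depends on S1PR1, which senses the lipid sphingosine 1-phosphate (S1P), low in tissue and high in blood. CXCR5, CCR7 and GPR183 place B cells in lymphoid organs, through CXCL13, through CCL19 and CCL21, and through oxysterols. CCR6 answers to CCL20 and CCR9 to CCL25. PSGL-1, the product of Selplg, binds selectins on vessel walls, and CD44 binds hyaluronan in the matrix.

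The libraries held 19581575 to 19758671 estimated reads, and 12123 genes passed the filter on low counts. Anp32b was at 74.4 and 70.6 CPM (reads scaled to a common library size) in knockout, against 774 and 853 CPM in wild type. The labels state the genotypes only, and the source of the Anp32b reads left in knockout was not tested. All 12 B lineage markers were present, with summed levels of 7018 to 7121 CPM in knockout and 7682 to 7721 CPM in wild type. Of these 12, 5 fell and 7 did not pass the test. Of 14 neutrophil markers, 13 fell, with a summed level of 122 to 123 CPM in knockout and 620 to 635 CPM in wild type and none at 0. The 4 Y-linked genes were lower too, summing to 41.7 to 42.5 CPM in knockout and 156 to 173 CPM in wild type. Such genes are read only in male cells, so genotype and the share of male cells cannot be told apart here. Of 5 tested T cell markers 2 rose, Lat and Zap70, and 1 fell, Cd4. The whole list summed to 87.8 to 92.1 CPM in knockout and 50.1 to 55.6 CPM in wild type. The higher knockout sums rested on the 2 that rose. Lat had a mean of 73.1 CPM in knockout and 36.7 CPM in wild type, and Zap70 had 13.3 and 9.23 CPM. Every other T cell marker had a lower mean in knockout, with Cd3e at 0 in both knockout libraries. Of 5 tested NK cell markers 2 fell, with sums of 2.01 to 2.53 CPM in knockout and 6.77 to 7.90 CPM in wild type. Both that fell were at most 0.46 CPM in each knockout library. They passed the filter on low counts through wild type alone, which favoured a fall over a rise. Of 10 tested monocyte and macrophage markers 3 fell, with sums of 39.0 to 40.02 CPM in knockout and 48.4 to 54.04 CPM in wild type. Of 5 tested plasma cell markers 1 rose and 3 fell, with sums of 589.9 to 591.9 CPM in knockout and 671.2 to 671.8 CPM in wild type. Of 10 tested erythroid markers 1 fell, with sums of 437 to 446 CPM in knockout and 549 to 589.8 CPM in wild type. The lower knockout sums rested on the 1 that fell, Car2, at 197 and 200 CPM in knockout and 334 and 356 CPM in wild type. For all 12123 tested genes the shares called were 10.9% higher and 12.6% lower. The marker and Y-linked differences run alongside every result below, and their part in those results was not tested. In such bulk RNA, fewer cells of a type and less RNA per cell cannot be told apart.

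Most of the receptors belong to the family of G protein-coupled receptors, in which a conserved acidic-arginine-tyrosine triplet follows the third membrane helix. The coding strand around that triplet is shown for both receptors that rose and for 2 relatives that did not pass the test, because reads can be assigned to single members only where such stretches differ. Each stretch spans 45 bases, 5′ to 3′, from the GENCODE M21 transcripts (GRCm38), and capitals mark the 3 codons of the triplet.
S1pr1: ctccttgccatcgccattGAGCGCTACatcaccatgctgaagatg
Cxcr5: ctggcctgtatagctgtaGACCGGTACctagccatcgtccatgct
Cxcr4: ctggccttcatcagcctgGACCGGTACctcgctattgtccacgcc
Ccr7: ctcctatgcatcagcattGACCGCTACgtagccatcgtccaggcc
The S1pr1 stretch lies on the minus strand at chr3:115712497-115712541 and that of Cxcr5 on the minus strand at chr9:44513891-44513935. Those of Cxcr4 and Ccr7 lie on the minus strand at chr1:128589494-128589538 and chr11:99145612-99145656. S1pr1 carries a glutamate codon where the 3 chemokine receptors carry an aspartate codon. Over the 15 pairs of the 6 members in which the triplet was found, 21 to 36 of the 45 bases were identical (median 30), even in this conserved stretch. No run of 50 bases of S1pr1, Cxcr4, Ccr7, Ccr6, Selplg, Cd44 or Gpr183 recurred in a transcript of another gene. In Cxcr5, 2.34% of such runs were shared with Bcl9l, which overlaps it on the other strand, and in Ccr9 7.45% were shared with Gm17200.

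Of the 9 receptors, 7 passed the filter on low counts and 2, Ccr6 and Gpr183, did not. In knockout, S1pr1 and Cxcr5 rose and no member fell. Over all tested genes 10.9% were called higher and 12.6% lower, 23.6% together, at an adjusted p under 0.05 (edgeR's quasi-likelihood test with Benjamini-Hochberg adjustment). So 2 calls among 7 tested members is a share near that of all genes. At an unadjusted p under 0.05, edgeR gave 1 member lower, Ccr9, and DESeq2 and limma-voom called 0 lower. The genotypes did not overlap for 6 of the 7 tested members, where they did not overlap for 60.5% of all tested genes. Knockout lay above for 3 members (30.0% of all tested genes) and below for 3 (30.5%). The median log2 fold change of the 7 was -0.08, against 0.0021 over all tested genes.

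S1pr1, the egress receptor, showed the largest rise of the group. The gene lies on chromosome 3 at 115710433 to 115715072 (minus strand, 2 exons). It had 423 and 414 reads in knockout, against 226 and 257 reads in wild type. As scaled levels these were 21.7 and 21.4 CPM in knockout and 11.34 and 12.96 CPM in wild type. Both knockout libraries stood above both wild-type libraries, and the knockout pair lay closer together. The means were 21.5 ± 0.24 CPM in knockout and 12.2 ± 1.14 CPM in wild type (SD, n = 2 each), a 1.77-fold rise (log2 fold change 0.83, SE 0.10, 95% interval 0.62 to 1.03, edgeR adjusted p = 1.75e-05). S1pr1 was called higher in each of the 11 alternative analyses, with log2 fold changes of 0.73 to 0.92. Among the 1323 genes called higher, 215 (16.3%) rose more than S1pr1 did. The neighbour Dph5, the only other tested gene within 200 kb, had a log2 fold change of 0.09 (edgeR adjusted p = 0.536).

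Cxcr5, the receptor for the follicle chemokine CXCL13, rose less. It lies on chromosome 9 at 44511787 to 44561877 (minus strand) and had 2502 and 2552 reads in knockout, against 2085 and 1949 in wild type. The levels were 128 and 132 CPM in knockout and 105 and 98.3 CPM in wild type, again without overlap. The rise was 1.28-fold (log2 fold change 0.36, SE 0.06, 95% interval 0.24 to 0.48, edgeR adjusted p = 0.000261). With knockout replicate 2 left out it no longer passed (0.34, adjusted p = 0.0536), and it passed in the other 10 alternatives. Bcl9l, whose exons overlap Cxcr5 on the opposite strand, fell by 0.26 on the log2 scale (edgeR adjusted p = 0.0391). The strand setting of the counting is not given in the sources used here, so reads from the overlap cannot be assigned with certainty.

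Cxcr4, the marrow retention receptor, did not pass the test despite its high level. It lies on chromosome 1 at 128588199 to 128592293 (minus strand). Its levels were 135 and 137 CPM in knockout and 127 and 134 CPM in wild type, so both knockout libraries were above both wild-type ones by a small margin. The log2 fold change was 0.06 (SE 0.05, edgeR adjusted p = 0.510). Its 95% interval, -0.06 to 0.17, leaves room for a fold of 0.96 to 1.12. Cxcl12, which encodes its ligand and was named for that role, had 4 and 0 reads in knockout and 1 and 0 reads in wild type.

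**Figure D1:**
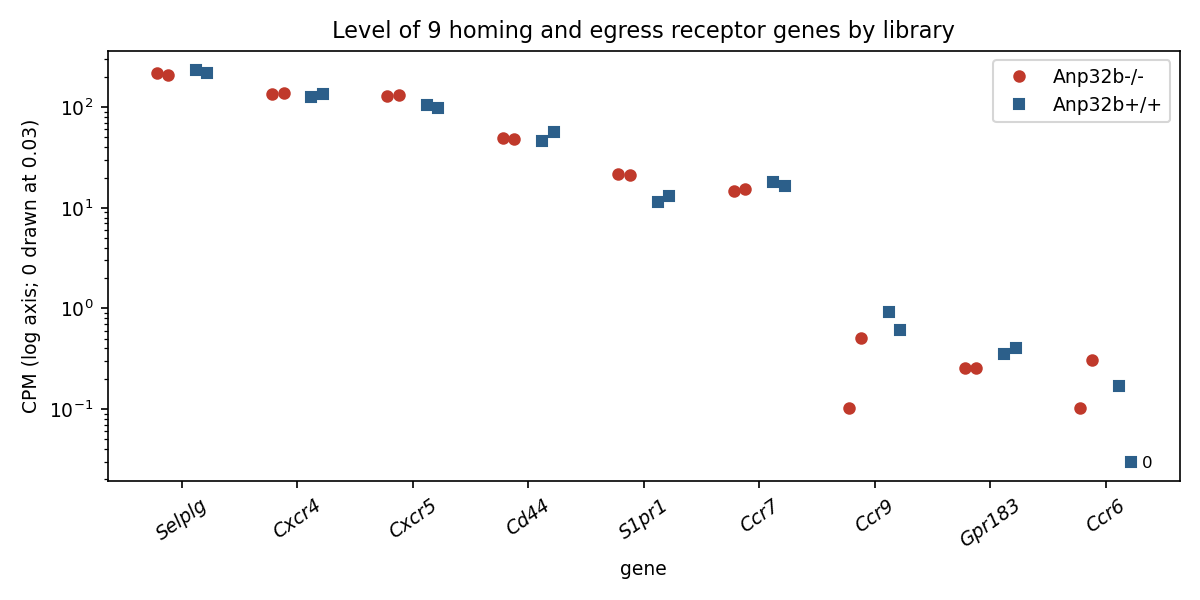
Level of each of the 9 receptor genes in CPM on a log axis, with 1 point per library, knockout (Anp32b-/-) circles left of wild-type (Anp32b+/+) squares. Selplg, Cxcr4 and Cxcr5 lie near or above 100 CPM, S1pr1 shows the widest gap between genotypes among the well-measured genes, and Ccr9, Gpr183 and Ccr6 lie below 1 CPM.

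Ccr7, which guides lymphocytes into lymph nodes, was at 14.8 and 15.3 CPM in knockout and 17.9 and 16.3 CPM in wild type. Both knockout libraries were below both wild-type libraries, yet the log2 fold change of -0.18 (SE 0.09) did not pass edgeR's test (adjusted p = 0.192, 95% interval -0.38 to 0.02). The gene lies on chromosome 11 at 99144196 to 99155077 (minus strand).

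Selplg, on chromosome 5 at 113818536 to 113832644 (minus strand), was the most abundant of the 9. Its levels were 217 and 207 CPM in knockout and 232 and 219 CPM in wild type. The pairs lay next to each other without overlapping, and the log2 fold change was -0.09 (SE 0.05, edgeR adjusted p = 0.287, 95% interval -0.20 to 0.03). Without wild-type replicate 2 the gene was called lower (-0.13, adjusted p = 0.0436).

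Cd44, on chromosome 2 at 102811141 to 102901665 (minus strand), was at 49.7 and 48.0 CPM in knockout and 46.6 and 57.1 CPM in wild type. The wild-type libraries lay on either side of the knockout pair. The log2 fold change was -0.08 (SE 0.08, edgeR adjusted p = 0.524, 95% interval -0.26 to 0.10). It was called lower without wild-type replicate 1 (-0.22, adjusted p = 0.0156), and its sign turned without wild-type replicate 2 (0.07, adjusted p = 0.535). No direction can therefore be given for Cd44. The files sum all splice forms of a gene, so the forms of Cd44 present here cannot be told apart.

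The remaining 3 receptors were barely detected. Ccr9, on chromosome 9 at 123678439 to 123784330 (plus strand), had 2 and 9.84 estimated reads in knockout, against 18.2 and 12.0 in wild type. The log2 fold change of -1.27 (SE 0.57, 95% interval -2.50 to -0.04) did not pass edgeR's test (adjusted p = 0.130), and it ran from -2.80 to -0.54 over the alternatives. Exons of Ccr9 overlap those of Gm17200 on the same strand and of AC165425.1 and Slc6a20a on the other strand. Its few reads therefore cannot be assigned with certainty. Ccr9 is also a marker of plasmacytoid dendritic cells. Of 7 tested markers of those cells, Ccr9 included, 3 fell, 1 rose and 3 did not pass. Summed levels were 138 to 150 CPM in knockout and 123 to 130 CPM in wild type. The higher knockout sums rested on the 1 that rose, Ly6d, at 71.9 and 77.6 CPM in knockout and 35.5 and 39.2 CPM in wild type. Every other marker of the list had a lower mean in knockout, and Klk1 was at 0 in both knockout libraries. Siglech, a defining gene of those cells, was at 0.74 and 1.03 CPM in knockout and 2.37 and 2.16 CPM in wild type, and its part in the Ccr9 values was not tested.

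Gpr183, on chromosome 14 at 121952551 to 121965195 (minus strand), had 5 and 5 reads in knockout and 7 and 8 in wild type. The ratio of summed reads was 0.68, with a 95% counting interval (exact binomial) of 0.27 to 1.62. Ccr6, on chromosome 17 at 8236043 to 8257141 (plus strand), had 2 and 6 reads in knockout and 3.36 and 0 in wild type, a ratio of 2.73 with an interval of 0.65 to 15.97. A count of 0 in that library allows up to 0.151 CPM. No difference in either gene was detectable at this depth, and these intervals and limits cover counting error only.

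**Figure D2:**
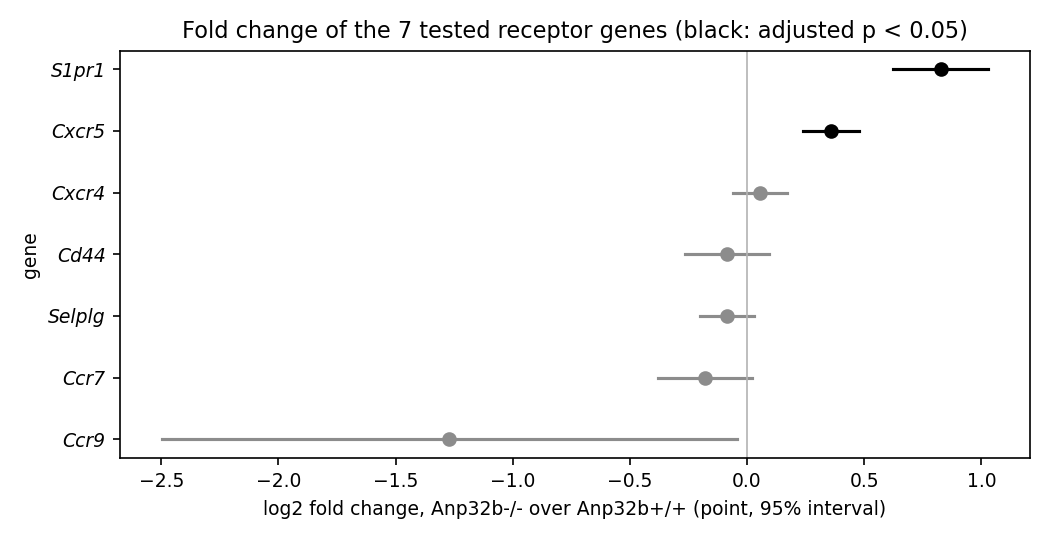
Log2 fold change of the 7 tested receptor genes, knockout over wild type, with 95% intervals from edgeR; black marks genes with an adjusted p under 0.05. The intervals of S1pr1 and Cxcr5 lie above 0, those of Cxcr4, Cd44, Selplg and Ccr7 include 0, and that of Ccr9 is the widest.

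Per kilobase of the principal transcript, the levels of the receptors could be ordered. Selplg led with 115 CPM per kb in knockout and 122 in wild type, followed by Cxcr4 with 75.3 and Cxcr5 with 49.8 in knockout, against 72.5 and 38.8 CPM per kb in wild type. The ranges over the 4 libraries did not overlap between these 3 neighbours, nor between Cxcr5 and Cd44. Cd44 (8.71 CPM per kb in knockout, 9.23 in wild type) and Ccr7 (7.63 in knockout, 8.63 in wild type) could not be separated by their ranges. The Cd44 value rests on a transcript of 5614 bases with 19 exons, and a shorter splice form would raise it. S1pr1 came next with 7.07 CPM per kb in knockout and 3.99 in wild type, so it stood closer to Ccr7 in knockout. Ccr9, Gpr183 and Ccr6 reached at most 0.30 CPM per kb, with ranges that overlapped. Selplg stood at the 94.0th percentile of tested genes on this scale, Cxcr4 at the 90.1st and S1pr1 at the 37.2nd.

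Ratios of reads within a library do not depend on how libraries are scaled to each other. Per 100 reads of Cxcr4 there were 16.1 and 15.6 reads of S1pr1 in knockout, against 8.90 and 9.66 in wild type. For Cxcr5 the same ratio was 95.2 and 96.2 in knockout and 82.1 and 73.3 in wild type. Both egress and follicle receptor reads were thus more numerous relative to Cxcr4 in each knockout library. Ccr7 ran the other way, with 11.00 and 11.20 in knockout and 14.0 and 12.1 in wild type. Of all reads on the 9 genes, S1pr1 took 3.83% and 3.80% in knockout and 2.09% and 2.41% in wild type.

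**Figure D3:**
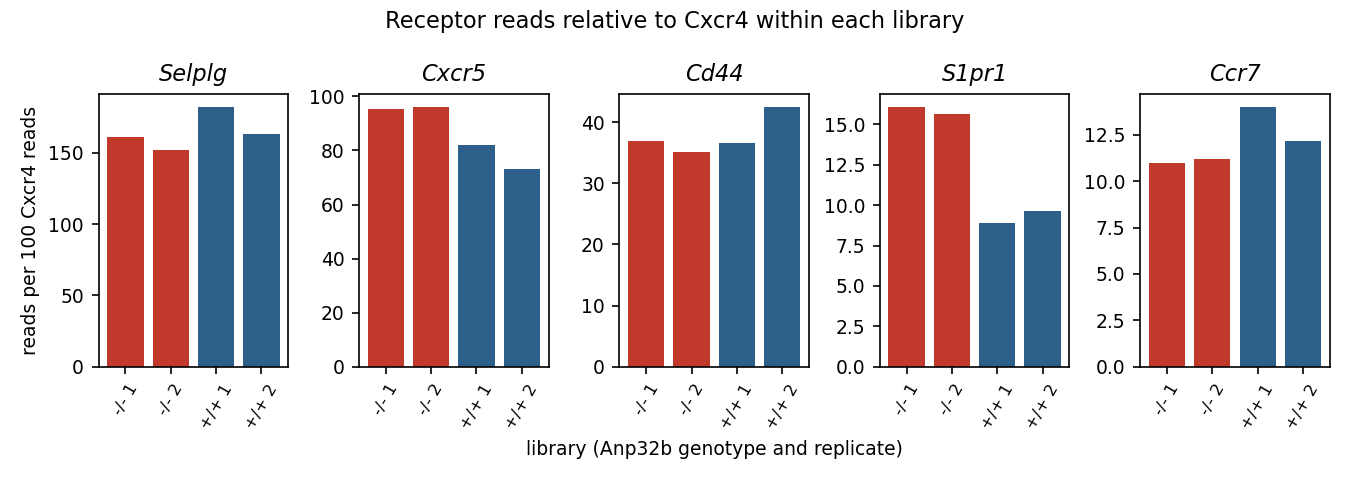
Reads of 5 receptor genes per 100 reads of Cxcr4 in the same library, 1 bar per library with knockout (-/-) left of wild type (+/+) and each axis starting at 0. S1pr1 has 16.1 and 15.6 in knockout, against 8.90 and 9.66 in wild type, while the Cd44 bars of the genotypes overlap.

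Klf2 rose while Cd69 and Foxo1 fell, in a list of 7 regulators of how homing and egress receptors, not S1PR1 alone, are made or displayed. Of the 7, 2 rose, 2 fell and 3 did not pass (median log2 fold change -0.07), where 10.9% of all tested genes rose and 12.6% fell. The other gene that rose was Gfi1 (log2 fold change 0.41, SE 0.08, edgeR adjusted p = 0.00143). Klf2, a transcription factor known to activate S1pr1 in T cells, was at 441 and 435 CPM in knockout and 231 and 221 CPM in wild type (log2 fold change 0.96, SE 0.05, edgeR adjusted p = 9.68e-09). Cd69, whose product binds S1PR1 and removes it from the cell surface, was at 136 and 135 CPM in knockout and 201 and 218 CPM in wild type (-0.63, SE 0.06, adjusted p = 1.32e-06). Foxo1, a factor that acts upstream of Klf2 in T cells, was at 68.4 and 68.9 CPM in knockout and 127 and 124 CPM in wild type (-0.87, SE 0.05). These 3 genes showed no overlap between genotypes and were called in all 11 alternatives. The 3 were named for the smallest p among the called genes of the list, and 60.5% of all tested genes also showed no overlap. The RNA levels say nothing of receptor protein at the cell surface.

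Of 11 tested genes for other S1P receptors and S1P metabolism, none rose and 4 fell (median -0.0043), against 10.9% and 12.6% of all tested genes. At an unadjusted p under 0.05 edgeR gave 0 higher, as many as DESeq2 and limma-voom called. Over the alternatives 1 to 4 of these genes were called lower, with 1 under DESeq2, with no filter and without knockout replicate 2. S1pr4, the S1P receptor with broad leukocyte expression, was at 88.3 and 87.8 CPM in knockout and 87.9 and 88.8 CPM in wild type, with overlapping libraries. S1pr4, Plpp2, Rgs1, Rgs14, Rgs19 and Snx20 were chosen for naming after their values were seen. S1pr3 fell by 1.19 (SE 0.31) on the log2 scale at a level of 0.92 and 0.72 CPM in knockout and 1.86 and 1.92 CPM in wild type, but did not pass with DESeq2 (adjusted p = 0.136), with no filter (0.0539) or on leaving out knockout replicate 1 (0.0506) or 2 (0.148). Plpp3, a phosphatase of extracellular lipids, fell by 1.15 (SE 0.18), and Sgpl1, the S1P lyase, by 0.25 (SE 0.08). Sgpl1 did not pass with DESeq2 (adjusted p = 0.214), with no filter (0.100) or on leaving out either knockout library (0.153 and 0.239) or wild-type replicate 2 (0.115). Plpp2, another lipid phosphatase gene, fell by 0.52 (SE 0.18, edgeR adjusted p = 0.0466) but did not pass with DESeq2 (0.272), with no filter (0.161), or on leaving out knockout replicate 2 (0.379) or either wild-type library (0.0654 and 0.108).

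Among 27 tested genes of receptor signalling and desensitisation, 4 rose, 4 fell and 19 did not pass (median -0.05). Both shares are near those of all tested genes, 10.9% higher and 12.6% lower. These counts moved with the library left out, to 0 higher and 2 lower without knockout replicate 1, to 1 higher and 2 lower without knockout replicate 2, and to 7 lower without wild-type replicate 2. With upper-quartile scaling 8 were called lower and with no filter 1 was called higher. RGS proteins shorten Gα signals from receptors such as CXCR4. Of the 7 tested RGS genes in this list, which does not hold the whole family, 3 fell, 2 rose and 2 did not pass. Rgs2 was at 80.6 and 80.8 CPM in knockout and 126 and 134 CPM in wild type (-0.69, SE 0.06, edgeR adjusted p = 5.41e-07). Rgs16 was at 15.5 and 14.7 CPM in knockout and 26.7 and 25.2 CPM in wild type (-0.78, SE 0.09, adjusted p = 1.05e-05). Rgs1, a strong inhibitor of chemokine responses in B cells, was at 0.92 and 1.08 CPM in knockout and 2.11 and 2.12 CPM in wild type (-1.07, SE 0.28). Rgs1 did not pass with DESeq2 (adjusted p = 0.155) or on leaving out either knockout library (0.125 and 0.0940). Rgs14 was at 24.8 and 22.2 CPM in knockout and 18.6 and 16.1 CPM in wild type (0.44, SE 0.10, edgeR adjusted p = 0.00382), and did not pass with no filter (0.0810) or without knockout replicate 1 (0.0754). Rgs19 was at 99.3 and 97.1 CPM in knockout and 78.8 and 88.5 CPM in wild type (0.23, SE 0.06, adjusted p = 0.0150), and did not pass with DESeq2 (0.0525), with no filter (0.120) or on leaving out either knockout library (0.159 and 0.179). Gng2, a G protein γ subunit gene, rose by 0.30 (SE 0.06), but did not pass on leaving out either knockout library (adjusted p = 0.0765 and 0.0521).

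**Figure D4:**
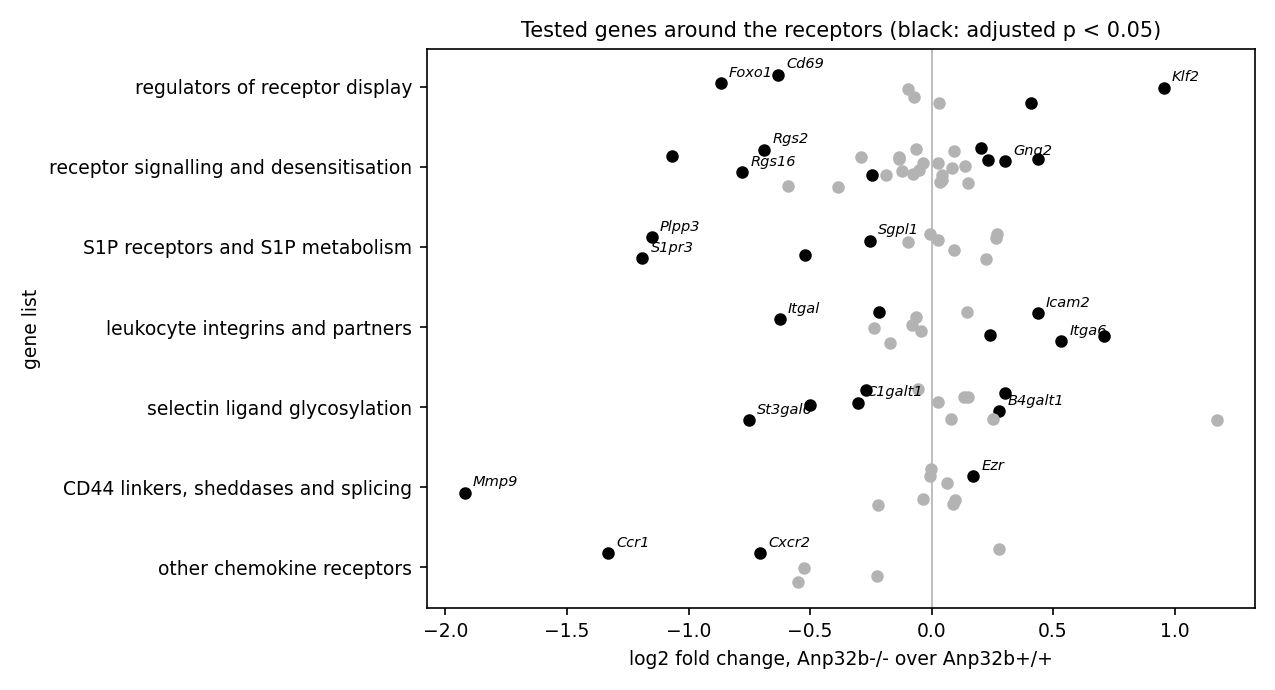
Log2 fold change, knockout over wild type, of the tested genes in 7 lists around the receptors, 1 point per gene, black where the adjusted p was under 0.05; the called genes with the smallest p are labelled, and vertical scatter within a list has no meaning. Klf2 lies at 0.96, Cd69 at -0.63 and Foxo1 at -0.87, while most signalling genes lie near 0.

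The adhesion partners moved in both directions, where 10.9% of all tested genes were called higher and 12.6% lower. Of 12 genes for leukocyte integrins and their partners 4 rose and 2 fell (median -0.05), with 1 lower under DESeq2, with no filter and on leaving out either knockout library or wild-type replicate 1. Itga6, the laminin receptor subunit, rose to 30.6 and 29.0 CPM in knockout, against 20.3 and 20.8 CPM in wild type (0.53, SE 0.08). Icam2, an integrin ligand, rose by 0.44 (SE 0.07), and Itgal, the LFA-1 α chain gene, fell by 0.63 (SE 0.08).

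Genes that build the selectin-binding glycans of PSGL-1, or whose products bind it, also split, with 2 of 13 tested higher and 4 lower (median 0.08). The shares of all tested genes were 10.9% higher and 12.6% lower. Over the alternatives 0 to 4 were called higher and 1 to 4 lower, with 0 higher and 1 lower both with no filter and without knockout replicate 2. Of the 4 that fell, Snx20 encodes a sorting nexin that binds PSGL-1 and no enzyme (-0.27, edgeR adjusted p = 0.0144). Snx20 did not pass with DESeq2 (adjusted p = 0.131), with no filter (0.0642) or on leaving out either knockout library (0.180 and 0.108). St3gal6, a sialyltransferase of selectin ligands, fell by 0.75 (SE 0.13). C1galt1, which makes core 1 O-glycans, fell by 0.30 (SE 0.07) and B4galt1, a galactosyltransferase, rose by 0.28 (SE 0.06). Neither passed on leaving out knockout replicate 2 (adjusted p = 0.163 for C1galt1, 0.156 for B4galt1) or with no filter (0.0801 and 0.0543). Of 9 tested CD44 linkers, sheddases and splicing genes, Ezr rose by 0.17 (SE 0.05) and Mmp9, a protease gene also strongly expressed by neutrophils, fell by 1.92 (SE 0.16). Neutrophil markers summed to 122 to 123 CPM in knockout and 620 to 635 CPM in wild type, and their part in the Mmp9 value was not tested. Ezr did not pass on leaving out either knockout library (adjusted p = 0.219 and 0.296), with no filter (0.0575) or with upper-quartile scaling (0.0540).

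Of 18 other chemokine receptors in the files 6 were tested, of which 2 fell and none rose (median -0.54, 0 higher at an unadjusted edgeR p under 0.05 and by DESeq2 and limma-voom). Among all tested genes 12.6% fell and 10.9% rose. None of the 6 was called lower with DESeq2 or without knockout replicate 2. Cxcr2, a neutrophil receptor, was at 3.59 and 3.43 CPM in knockout and 5.97 and 5.44 CPM in wild type (-0.70, SE 0.17). Ccr1, a receptor of myeloid cells, fell by 1.33 (SE 0.46), from 0.80 and 1.16 CPM in wild type to 0.51 and 0.26 CPM in knockout. For Ccr1 only the wild-type pair was above the filter on low counts in both libraries. Neither passed with DESeq2 (adjusted p = 0.0895 for Cxcr2, 0.299 for Ccr1) or on leaving out knockout replicate 2 (0.102 and 0.356). Ccr1 also failed with no filter (0.166) and on leaving out knockout replicate 1 (0.0780) or wild-type replicate 2 (0.217). The same neutrophil marker difference accompanies these values, and its part in them was not tested. Of 3 tested ligand genes, Mif, which encodes a cytokine that also binds CXCR4, rose by 0.34 (SE 0.05), but did not pass on leaving out knockout replicate 2 (adjusted p = 0.0657). Mif has near-identical pseudogene copies, so its count is uncertain. Neither of the 2 tested genes of oxysterol metabolism was called, Hsd3b7 having the higher level (log2 fold change 0.50, edgeR adjusted p = 0.0985). Hsd3b7 was called higher without wild-type replicate 2 (0.75, adjusted p = 0.0337). It was the 1 gene of the list with an unadjusted edgeR p under 0.05, and DESeq2 and limma-voom called 0.

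The genes whose levels followed S1pr1 most closely over the 4 libraries were Klhdc2, Fndc3b and Lpxn, out of 9622 tested genes of at least 5 CPM. Likeness was the Euclidean distance between log2 CPM values centred on each gene's mean, which was 0.04 for Klhdc2 and 0.10 for Fndc3b and Lpxn. Klhdc2 was at 83.4 and 83.7 CPM in knockout and 45.3 and 50.2 CPM in wild type. Lpxn, which encodes the adhesion adaptor leupaxin, was at 24.8 and 26.2 CPM in knockout and 13.5 and 14.5 CPM in wild type. With 4 libraries in 2 groups, such likeness mostly states a rise of the same size.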

How the data were processed

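The deposited files hold estimated read counts (expected counts) per gene symbol, 1 file per library, per the file headers. Per the submitters' processing notes HISAT2 2.0.4, DESeq2 1.4.5 and GRCm38 were used. How reads were counted, with which annotation and strand setting, is not stated in the labels or files. Counts were rounded and tested with edgeR 4.0.16 (quasi-likelihood, TMM scaling, filterByExpr with a minimum count of 10, no covariate, R 4.3.3) over all 12123 genes that passed. CPM values carry the TMM factors, and their SD is over 2 libraries. DESeq2 1.42.0 and limma 3.58.1 (voom) served as alternatives, with other scalings and filters, a replicate block and the omission of each library. The procedure was tested on simulated counts.

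Coordinates and transcript lengths are from GENCODE M21 (GRCm38), counted from 1. The members and lists were chosen with earlier results of these data known. Named were Anp32b, all members, the 3 called genes of smallest p in each list (the most abundant where none was called) and the 3 genes most like S1pr1. Outside that rule, Cxcl12, Dph5, Bcl9l, Gm17200, AC165425.1, Slc6a20a and the other marker genes were named for their role or position. S1pr4, Plpp2, Rgs1, Rgs14, Rgs19, Snx20, Gfi1 and the marker genes Lat, Zap70, Cd4, Cd3e, Car2, Ly6d and Klk1 were named after their values were seen. The replicate counts were not copies of each other: chi-square per degree of freedom between them was 1.92 in knockout and 4.53 in wild type. These values cannot tell whether replicates came from separate animals.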

Additional observations from a re-analysis of the deposited data

How the results depend on the processing

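Across 11 alternatives, 357 of 409 log2 fold changes of named genes kept direction and side of the threshold. S1pr1 was called higher in every alternative, Cxcr5 in 10, and Cxcr4, Ccr7 and Ccr9 in none of those in which they were tested. The receptors called higher numbered 1 to 2 and those called lower 0 to 1 over the leave-outs. Over all genes, calls were 729 higher and 847 lower with DESeq2, 547 and 744 with no filter, and 372 to 1676 and 579 to 1712 over the leave-outs. With 1 knockout library the spread comes from the wild-type libraries alone, and those differed more from each other. Signs turned without wild-type replicate 2 for Cd44 (0.066, range over the leave-outs -0.22 to 0.066) and S1pr4 (0.00018), and without knockout replicate 2 for S1pr4 (0.0010, range -0.012 to 0.0010). The cause was not tested. With the replicate number as a block, 1644 genes were called higher and 1779 lower, with the same 2 receptors higher and 0 lower. The numbers do not pair the libraries by any label, and deviations of same-numbered libraries were barely correlated (r = 0.03 across genes, which are not independent replicates). Depth limits Ccr6, Gpr183 and Ccr9.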
